A study of Mus musculus with 9 samples.

Results

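Between the R245W line and the null line, ATAC-seq peaks differed at single gene starts, such as Irx2, and over whole stretches of chromosomes. Cdkn2b and Nf1 lay in such stretches, where loss of the DNA and loss of its accessibility cannot be told apart. Most regions called in 1 of these lines and not the other lay outside the longer stretches. The comparison set 3 ATAC-seq libraries of the p53R245W/- line against 3 of the p53-/- line, out of 9 libraries in the series. Both are mouse osteosarcoma cell lines, grown in culture from primary bone tumours. The p53R245W/- line has 1 p53 copy carrying the R245W substitution and lacks the other, and the p53-/- line lacks both. The remaining 3 libraries, of a p53R172H/- line, entered the merging of peaks, and their values are given only as a further reading of the same places. Every genotype was 1 line, so genotype and line cannot be told apart. Nothing in the labels tells if a line's libraries were separate cultures, so each p-value measures the spread between these libraries, which may be technical.

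The members were chosen by position and call alone. Peaks of all 9 lists were merged at an overlap of at least 1 bp, and any library with a peak inside a region counted as calling it. Of the 124230 regions of the series, 99593 were called in at least 1 of the 6 libraries. Of these, 12456 (12.5% of the 99593) had a peak in each R245W library and in none of the null line (R245W-only), and 5006 (5.03%) the reverse (null-only). A further 47700 were called in all 6, and 34431 had some other pattern. The rule set those counts, so they are a description. No single region can pass a test of 3 libraries against 3, where the smallest exact two-sided permutation p is 0.1. With the 9 lists shortened to one length by peak strength, the counts became 8772 and 7352, so the excess on the R245W side was mostly absent when the lists were equally long.

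p53 is a transcription factor that binds DNA as a tetramer and switches on genes of cell-cycle arrest, DNA repair and cell death. R172H and R245W are substitutions in its DNA-binding domain, the part hit most often in human tumours, and osteosarcoma, a tumour of bone-forming mesenchymal cells, commonly loses p53 function. ATAC-seq uses the Tn5 transposase to cut DNA that is not packed in nucleosomes, so that a peak marks accessible chromatin such as an active promoter or enhancer. A signal spread over all cells of a culture and a stronger one in a fraction of its cells cannot be told apart in such bulk data.

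The promoters below belong to starts open in every library of 1 line and in none of the other. They were picked by gene and not by strength, and Hand2 and Six2 are not among the 10 strongest starts. Each is the 250 bases before an annotated start, in the direction of the gene, from RefSeq (GRCm38.p6), the build of the peak lists. Capitals mark short motifs on either strand. They are the AP-1 motif TGANTCA, bound by Fos and Jun proteins, and the TEAD motif GGAATG, bound by Hippo pathway factors. The others are the GC box GGGCGG, bound by Sp factors, and the CCAAT box. The E-box CAGCTG, bound by helix-loop-helix factors, and the TATA motif TATAAA were searched as well.
Cdkn2b, open in R245W and not in null, chr4:89311033-89311282, minus strand: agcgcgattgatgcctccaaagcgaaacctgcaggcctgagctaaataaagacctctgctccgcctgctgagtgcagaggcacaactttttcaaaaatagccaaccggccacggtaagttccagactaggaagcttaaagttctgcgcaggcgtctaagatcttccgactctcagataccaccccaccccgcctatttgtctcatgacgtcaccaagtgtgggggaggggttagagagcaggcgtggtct
Irx2, open in R245W and not in null, chr13:72628570-72628819, plus strand: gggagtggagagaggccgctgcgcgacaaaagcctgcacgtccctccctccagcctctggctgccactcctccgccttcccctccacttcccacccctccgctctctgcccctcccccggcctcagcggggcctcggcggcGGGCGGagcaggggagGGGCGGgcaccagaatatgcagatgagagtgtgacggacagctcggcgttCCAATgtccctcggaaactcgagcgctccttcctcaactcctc
Hand2, open in R245W and not in null, chr8:57320733-57320982, plus strand: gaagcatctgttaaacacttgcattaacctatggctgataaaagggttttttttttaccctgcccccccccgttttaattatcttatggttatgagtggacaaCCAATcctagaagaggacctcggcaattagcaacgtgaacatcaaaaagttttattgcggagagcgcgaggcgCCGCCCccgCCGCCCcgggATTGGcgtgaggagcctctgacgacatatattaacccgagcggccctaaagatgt
Six2, open in R245W and not in null, chr17:85688255-85688504, minus strand: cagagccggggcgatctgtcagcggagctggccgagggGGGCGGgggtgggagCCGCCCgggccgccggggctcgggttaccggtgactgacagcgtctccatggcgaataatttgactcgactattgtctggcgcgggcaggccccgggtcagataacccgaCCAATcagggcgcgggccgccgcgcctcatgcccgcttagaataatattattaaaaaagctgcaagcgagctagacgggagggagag
Nf1, open in null and not in R245W, chr11:79339642-79339891, plus strand: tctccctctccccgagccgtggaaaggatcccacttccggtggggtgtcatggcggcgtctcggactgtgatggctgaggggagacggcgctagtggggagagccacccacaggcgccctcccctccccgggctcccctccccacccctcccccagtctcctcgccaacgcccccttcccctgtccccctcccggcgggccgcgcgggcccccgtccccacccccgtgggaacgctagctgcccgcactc
Sav1, open in null and not in R245W, chr12:69987003-69987252, minus strand: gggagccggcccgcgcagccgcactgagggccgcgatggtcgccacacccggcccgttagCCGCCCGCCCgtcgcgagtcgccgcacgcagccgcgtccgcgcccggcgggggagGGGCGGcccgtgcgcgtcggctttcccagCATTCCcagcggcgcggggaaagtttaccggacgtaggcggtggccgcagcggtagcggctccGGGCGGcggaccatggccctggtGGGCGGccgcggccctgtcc
Irx2, Hand2 and Six2 each hold 2 GC boxes. Irx2 and Six2 hold 1 CCAAT box each and Hand2 holds 2. Sav1 holds 5 GC boxes and 1 TEAD motif, while Cdkn2b and Nf1 hold none of the motifs marked. CpG pairs numbered 12 in Cdkn2b, 19 in Irx2, 15 in Hand2, 26 in Six2, 21 in Nf1 and 43 in Sav1. A match is a description of letters in this window, and its absence says nothing of a factor.

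The 2 lines shared most cell type markers and differed in the length of their peak lists. R245W libraries had 75314 to 79424 peaks and null libraries 65199 to 65942. The background pile-up at summits, a relative measure of depth recovered from the peak statistics, was 6.06 ± 0.376 in R245W and 5.41 ± 0.390 in null (SD, n = 3, exact two-sided permutation p = 0.2). Starts of 6 of 7 bone-forming markers, among them Runx2, Sp7, Alpl and Col1a1, had a peak in all 6 libraries, and only Ibsp had none. All 5 mesenchymal markers were open in all 6. The starts of the immune genes Ptprc, Cd3e and Adgre1, the endothelial genes Pecam1, Cdh5 and Tie1 and the epithelial genes Cdh1, Krt5 and Krt14 had no peak in any of the 6, although Spi1, Erg and Esrp1 did. Trp53 itself had an open start at percentiles of 87.0, 89.2 and 88.3 in R245W and 91.0, 89.5 and 89.5 in null. Which part of Trp53 the null line lacks is not in the labels, so this peak does not check them.

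Cdkn2b, which encodes an inhibitor of cyclin-dependent kinases 4 and 6, held the strongest region present in R245W and absent from null. Strength is given as the percentile of -log10 q among all peaks of the same library, a rank within that list, and regions were ordered by the lowest of their 3 percentiles. The Cdkn2b region (chromosome 4, 89310183 to 89311474, GRCm38) stood at 99.2, 99.1 and 99.5 in the 3 R245W libraries, had no peak in null, and stood at 97.5, 96.5 and 97.3 in R172H. All 6 regions assigned to Cdkn2b that were called in either line were called in R245W only. They lay in a stretch of 114 kb (89258356 to 89372304) with 8 peaks in each R245W library and 0 in each null library.

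Other strong regions absent from null lay near Ccr1, a chemokine receptor gene, at Mga, a MAX-binding transcription factor, and at Irx2, an Iroquois homeobox gene. The region 24922 bp from Ccr1 stood at 98.3, 97.2 and 97.6 in R245W and had no peak in R172H either. Irx2 likewise was open in R245W alone among the 3 lines, at 92.7, 92.9 and 92.8, as a single region in a gap of 14.02 kb between regions called in null. Mga stood at 94.9, 95.2 and 93.7, and was also open in R172H. Also among the 12 strongest were those of Minpp1, Wdr17, Enox2, Aff1 (a super elongation complex subunit), B4galt6, Dock3 and Epb41l3, with lowest percentiles from 92.2 down to 89.1. All 3 R172H libraries had a peak at each of these except Ccr1, Irx2 and Aff1, where none had one.

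In the other direction the strongest region, absent from R245W, was that of Tspyl2, a gene of the nucleosome assembly protein family on chromosome X (152341735 to 152343092). It stood at 96.1, 97.0 and 96.9 in null and 96.0, 96.3 and 95.2 in R172H. Nf1, whose product neurofibromin turns Ras off, followed (chromosome 11, 79338851 to 79340794), at 94.4, 94.5 and 94.7 in null, 93.5, 92.6 and 92.3 in R172H and no peak in R245W. It lay in a stretch of 230 kb (79265076 to 79494946) with 9, 10 and 8 null peaks, 12, 10 and 12 R172H peaks and 0 in each R245W library. Also strong were Clcn4, a chloride transporter gene, and Atl1, which encodes atlastin, with lowest percentiles of 92.5 and 91.3. Regions near Enox1, Ctbp1 and Hhat were in null alone among the 3 lines, at lowest percentiles of 91.0, 88.2 and 87.4. A second Tspyl2 region, 88.5 or higher in null, was also open in R172H. Regions near Hunk and Htr4 were called in all R172H libraries too, and that near Msi2 in 1.

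**Figure D1:**
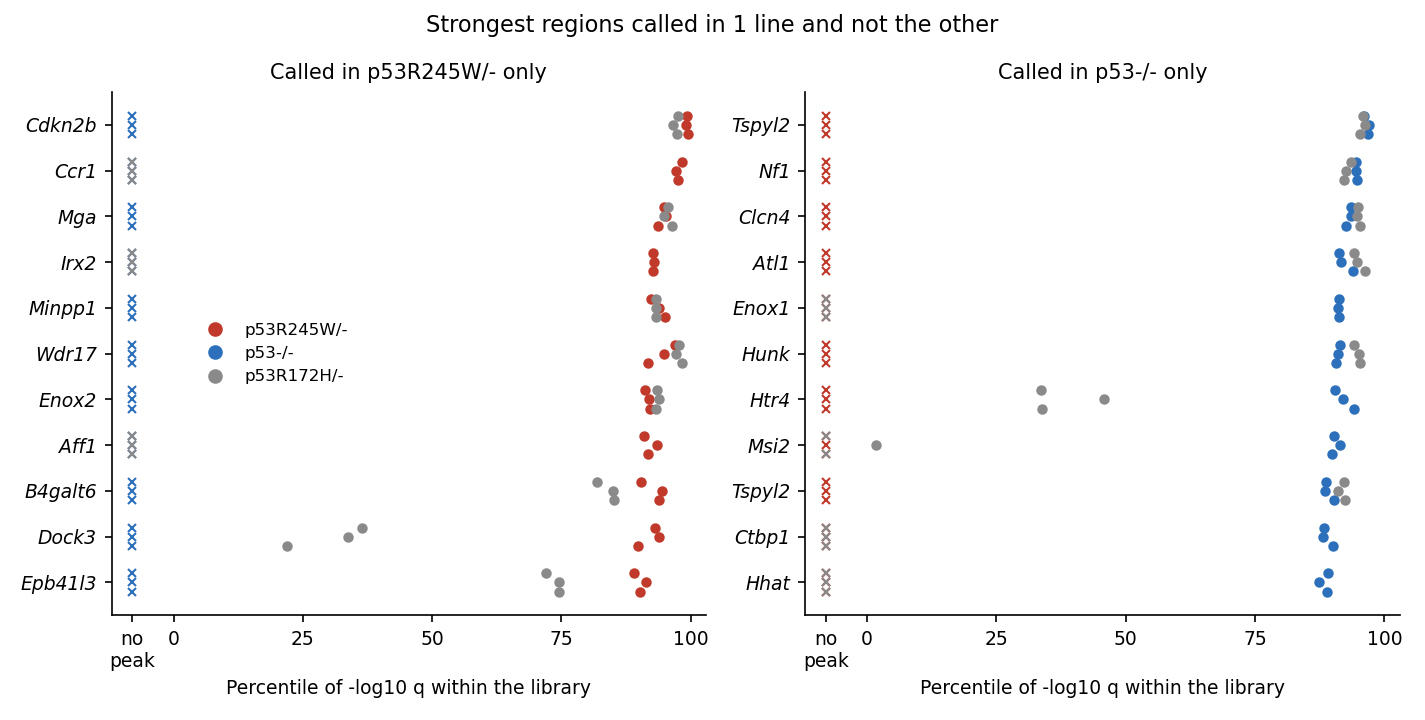
The strongest regions named in the text, called in R245W only (left) and in null only (right), named by the nearest gene, with the percentile of -log10 q in each of the 9 libraries on the x axis; crosses mark libraries without a peak. On both sides the 3 libraries of the line that has the region sit close together, from 87.4 to 99.5, and most but not all R172H libraries have a peak too.

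Such regions were exceptions among the line-specific ones, which were mostly weak. The lowest percentile had a median of 26.0 over the 12456 R245W-only regions and 23.6 over the 5006 null-only regions, against 53.6 over those called in all 6. Only 12 and 9 of them exceeded 90. Their median width was 701 and 635 bp, against 1102 bp for shared regions. A gene start lay within 1000 bp of 7.47% of the R245W-only regions, 3.10% of the null-only and 25.5% of the shared regions. R172H had a peak in all 3 libraries at 3781 (30.4%) of the R245W-only and 1066 (21.3%) of the null-only regions. The same share was 76.5% of the shared regions and 49.4% of the 99593 regions called in at least 1 of the 6 libraries. R245W-only regions with an R172H call were the stronger ones, with a median lowest percentile of 31.9 against 23.8 for those with none.

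At gene starts the imbalance was larger. A peak within 1000 bp made a start open, using annotated starts for 17491 protein-coding genes and either end of the span for 4392 others. In R245W alone 733 starts were open (3.35% of 21883) and in null alone 99 (0.452%), while 12488 (57.1%) were open in all 6. For starts, alone is meant between R245W and null, whatever R172H showed, unless the other lines are named. With lists of equal length the shares were 2.6% and 0.786%. R172H was open in all 3 libraries at 97.5% of the 12488, at 345 of the 733 and at 39 of the 99. Over the 80th percentile in every library of their line stood 29 and 10.

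Among these starts were regulators of muscle, epithelium, limb and Wnt signalling. Myocd, the cofactor that switches on smooth muscle genes, was open at a span end at 79.2, 84.4 and 81.8 in R245W and in no library of the other lines. Trp63, a p53 relative that specifies stratified epithelium, stood at a span end at 68.0, 71.4 and 75.1, and Dsp, which encodes the desmosomal protein desmoplakin, at 56.1, 53.9 and 55.5, both in R245W alone among the lines. The limb and heart regulator Hand2 stood at 73.5, 73.3 and 70.2 in R245W and at 84.8, 87.1 and 87.1 in R172H. Six2, a homeobox gene of skeletal and kidney progenitors, stood at 47.4, 58.7 and 47.2 in R245W only. Wnt7b, a Wnt ligand gene, stood at a span end at 76.1, 73.4 and 74.0 and was open in R172H too. Aldh1a1, which makes retinoic acid, stood at 67.1, 69.8 and 66.7 in R245W and at 75.6, 76.5 and 74.7 in R172H.

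Open in null alone beside Nf1 were Dmac2l, the pair of Map4k5 and Atl1, which share 1 region, and Sav1. Sav1, the scaffold of the Hippo kinase cascade, stood at 86.2, 85.5 and 89.0 in null and 91.6, 87.5 and 91.5 in R172H. These 4 genes lie together in a stretch of 353 kb on chromosome 12 with no R245W peak and 14, 15 and 13 null peaks, so they are 1 locus. Ccdc89 stood at 85.3, 82.2 and 85.2 in null and was closed in both mutant lines. At Cyb561d1 and Dnajc5, placed by a span end, the peak within 1000 bp belonged to no line-specific region, and both calls ended with a narrower or wider window. The calls at Mga, Irx2, Wdr17, Nf1 and Clcn4 rest on the annotated start and ended with either span end used for all genes.

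By CpG content, promoters of the starts open in R245W alone lay between those open everywhere and those closed everywhere. Their median was 9 CpG pairs in 250 bases, against 17 for starts open in all 6 libraries, 5 for starts open in null alone and 2 for starts open in none. Here each annotated start was called on its own, so the 702 R245W-only promoters belong to 629 genes and the 91 null-only to 87. These sets differ from the 733 and 99 above, which were called by gene. The GC box stood in 47.6% of the 702 R245W-only promoters, 34.1% of the 91 null-only promoters, 62.0% of those open in all 6, 12.2% of those open in none and 42.6% of all 21262 promoters. The E-box CAGCTG, which is 1 form of the looser CANNTG and a site of basic helix-loop-helix factors, stood in 18.8%, 14.3%, 11.3%, 11.995% and 12.1% in the same order, so the R245W-only share was above the others. For CANNTG the shares were 65.4%, 69.2%, 55.4%, 73.8% and 62.8%. The AP-1 motif stood in 8.40%, 4.40%, 4.24%, 8.61% and 6.13%, and the TEAD motif in 10.97%, 12.1%, 10.3%, 13.99% and 11.7%. The null-only shares rest on few promoters, 4 for AP-1, 11 for TEAD and 13 for CAGCTG. Genes with starts open in R245W alone include several of the Pcdha and Pcdhg protocadherin clusters. Those are related neighbours, and their weight in these shares was not tested.

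Line-specific regions often lay side by side. Null had no peak in 180 stretches that held 5 or more regions called in all R245W libraries, and R245W had none in 17 stretches of the reverse kind. They held 1313 (10.5%) of the R245W-only and 136 (2.72%) of the null-only regions, so most specific regions were outside them. The stretch with the most regions, 27, covered 1057 kb of chromosome X. The next covered 913 kb of chromosome 5 with Galnt17, Caln1 and Auts2 and held 24, where R245W had 27, 29 and 26 peaks and R172H 30, 30 and 33. Further stretches on chromosome X touched Enox2 and Igsf1 (24 regions), the glypican genes Gpc3 and Gpc4 (20) and Rai2 and Nhs (19). On chromosome 17, 1204 kb with Epb41l3 held 23 regions. The one with the most regions of the reverse kind was 714 kb of chromosome 15 (92231867 to 92945934) with Cntn1 and Pdzrn4: 23 regions, with 25, 27 and 25 null peaks and 1 in each R172H library. Of the 14 reverse stretches with the most regions, 7 lay on chromosome 7, among them one of 182 kb at St8sia2, a polysialic acid synthase gene, with 13, 11 and 15 null peaks and 0 in R172H. Loss of the DNA and loss of its accessibility cannot be told apart in peak lists. These stretches were picked after their values were seen.

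**Figure D2:**
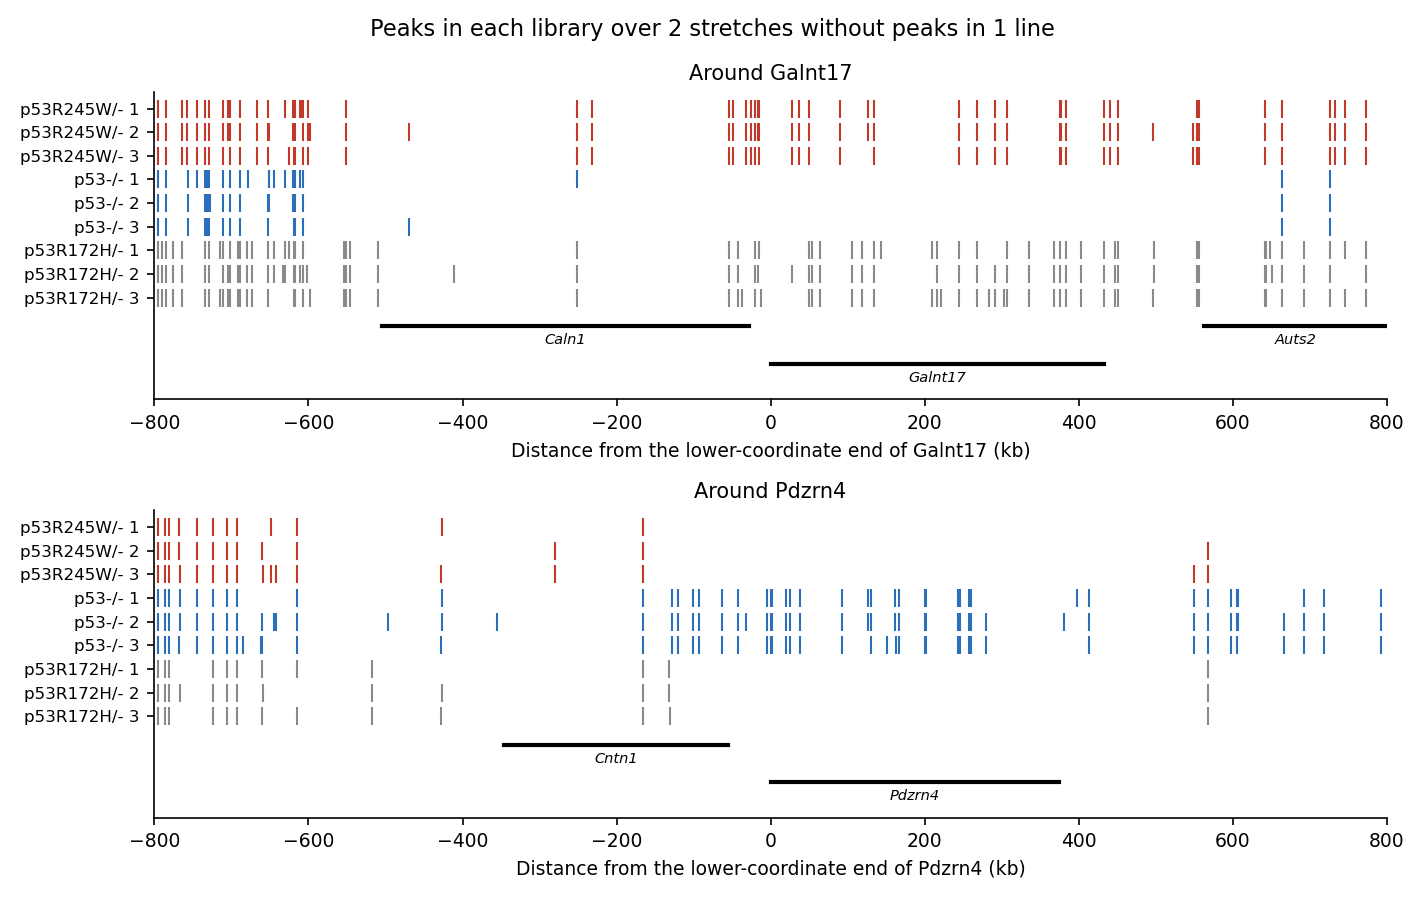
Peaks in each of the 9 libraries (rows, 1 tick per peak at its centre) against the distance in kb from the lower-coordinate end of Galnt17 (top) and Pdzrn4 (bottom); black bars are gene spans. The 3 null rows are empty across 913 kb around Galnt17, and the 3 R245W rows are empty across 714 kb around Pdzrn4.

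Counted by gene, Sash1, a signalling scaffold gene, had the largest surplus in R245W, with 8 regions in R245W only, 0 in null only and 5 shared. Galnt17, Epb41l3, Daam2, Pax8, Itgb1, Aldh1a1, Zfp536 and Col15a1 had 7 and 0 each. They differ in what lies around the gain: Galnt17, Epb41l3 and Aldh1a1 had no shared region at all, while Itgb1, the integrin beta 1 gene, had 6 and Col15a1, a basement membrane collagen gene, had 9. Mvb12b, of the ESCRT-I sorting complex, had 6 gained regions, and 6 of its 7 shared regions also ranked higher in R245W. The largest surplus in null was that of Pdzrn4, with 7 regions against 0 and none shared. Clmp, an adhesion molecule gene, had 6 against 0, with 5 of 10 shared regions ranking lower in R245W. Slit3, a guidance ligand gene, had 5 against 0, with 5 of 7 shared regions lower. Tjp1, the ZO-1 tight junction gene, had 6 weak ones, of median lowest percentile 6.04. St8sia2, Rin3 and Vipr2 also had 6 against 0, Sh3tc2 had 7 against 1 and Zswim6 6 against 1. Scara5, Mical2 and Mfhas1 had 5 against 0.

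Where all 6 libraries had a peak, strength was compared as the percentile rank among the 47700 shared regions, which is the same number in each library. The calls are those of limma with Benjamini-Hochberg adjusted p under 0.05 and a difference of 10 points or more. In R245W 9761 regions (20.5%) ranked higher and 9760 (20.5%) lower, and 57.8% of all shared regions lay within 10 points. Ranks are relative, so rises and falls cancel in sum over all shared regions by construction, though the 2 counts need not be equal. With percentiles taken within each library's whole list, 12332 were higher and 5896 lower (67.7% of calls higher, against 50%). The median SD between libraries was 2.74 points in R245W and 2.64 in null. All 3 R245W ranks lay above all null ranks at 15508 regions (32.5%) and below at 14959 (31.4%).

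Among the 12 largest shifts upward, 3 lay at 1 locus of chromosome 15: at Jrk (97.5, 98.1 and 95.9 against 7.1, 10.95 and 3.8), at Lynx1, a modulator of nicotinic receptors (90.04, 88.7 and 89.8 against 3.4, 2.0 and 2.4), and near Mroh4. The difference at Jrk was 89.9 ± 2.14 points (SE, limma adjusted p = 2.96e-06). At the cannabinoid receptor gene Cnr1, which had no R172H peak, R245W ranks were 88.7, 89.1 and 87.9 and null ranks 13.7, 4.6 and 6.5 (difference 80.3 ± 2.55 points). Others of the 12 lay at or near Erich2, Npr3 (a natriuretic peptide receptor), Trabd2b, Igf2bp3 (an RNA-binding protein of fetal tissue), Anapc7, Nrap and Plb1, with differences from 86.9 to 78.6 points.

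The largest shift downward lay inside Zmiz1, a transcriptional coregulator gene (chromosome 14, 25504567 to 25505946). It ranked at 2.6, 2.8 and 3.9 in R245W and at 93.1, 94.3 and 94.4 in null, a difference of -90.8 ± 1.42 points (SE, limma adjusted p = 2.49e-06). Near Ets1, a transcription factor gene, the ranks were 2.9, 0.044 and 0.61 against 81.5, 80.1 and 83.2, and near Dusp6, which encodes an ERK phosphatase, 0.42, 0.55 and 0.075 against 77.6, 80.3 and 79.7. A region 5135 bp from Wnt5a, a ligand of non-canonical Wnt signalling, ranked at 16.8, 7.0 and 12.8 against 90.7, 91.4 and 93.1. The others were at or near Dpysl3, Soat2 (a cholesterol acyltransferase), Cemip (of hyaluronan breakdown), Esyt2, Lgals3 (galectin-3), Usp53, Sgca and Hebp1. R172H had a peak in none of its libraries near Ets1, Esyt2, Lgals3 and Hebp1. In these 24 regions the 2 lines' libraries did not overlap, a condition of their choice.

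**Figure D3:**
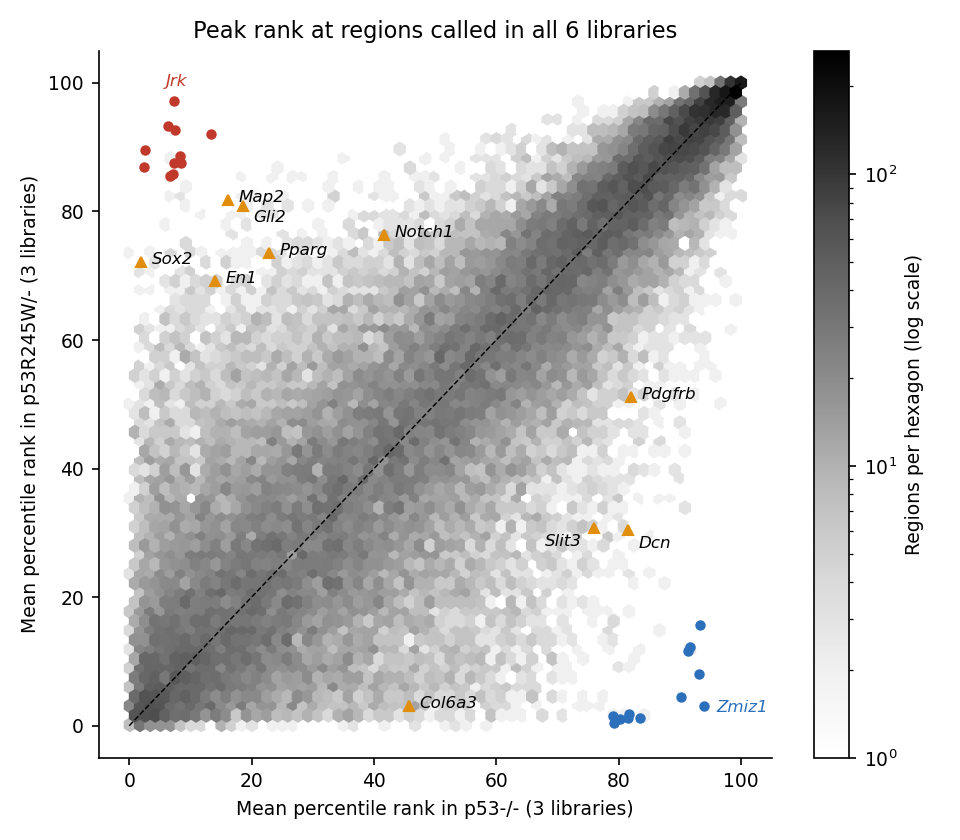
Mean percentile rank over 3 null libraries (x axis) and 3 R245W libraries (y axis) of the 47700 regions called in all 6, as hexagons shaded by number of regions on a log scale. Red and blue points are the largest shifts each way named in the text and orange triangles are start regions of named genes; regions at the top ranks crowd on the dashed diagonal, and Jrk and Zmiz1 lie near opposite corners.

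Shifts were less frequent at gene starts. Of 12160 shared regions at a start, 14.9% ranked higher in R245W and 7.34% lower, against 22.4% and 25% of the 35540 away from starts. Regions that no R172H library had were lower in R245W in 34.3% and higher in 23.2%, while regions in all R172H libraries were lower in 16.9% and higher in 19.6%. By gene, 1699 of 12622 shared start regions (13.5%) ranked higher and 804 (6.37%) lower. That surplus depends on the measure: with the authors' fold over local background ranked in place of -log10 q, 1111 (8.8%) were higher and 1315 (10.4%) lower. So start counts of a list, where given, are by both measures, -log10 q first and fold second. Of the 157 list genes whose start shifted, 70 kept their sign and a limma adjusted p under 0.05 in every alternative, whatever the size. With fold 57 kept the sign without such a p, and 27 turned. A shift under 10 points by fold, such as -7.59 at Igf1r, is not a call by that measure. Genes given with ranks from here on are among the 70 unless said otherwise, and were picked after their values were seen.

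In the Hedgehog pathway, which patterns limb and bone, 6 of 12 starts were higher and 0 lower by -log10 q, and 2 and 0 by fold. Gli2, the main transcriptional activator of the pathway, ranked at 82.4, 79.2 and 81.1 in R245W and at 20.5, 13.0 and 22.1 in null, a difference of 62.4 ± 2.68 points (SE, limma adjusted p = 8.31e-06) and of 33.1 by fold. Smo, Ptch1 and Gli1 lost the call with fold, and the coreceptor Boc went from 23.6 to -3.78 points. R172H had peaks at all 6 starts in all 3 libraries.

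In the Notch pathway, which sets cell fate between neighbouring cells, 7 of 18 starts were higher and 1 lower by -log10 q, and 1 and 2 by fold, so no direction held for the list. The receptor gene Notch1 ranked at 77.3, 75.4 and 76.4 against 40.3, 44.6 and 39.98, a difference of 34.8 ± 1.81 points (limma adjusted p = 1.62e-05) and of 17.4 by fold. Maml2, a coactivator gene, was lower, with ranks of 64.6, 69.8 and 65.4 against 86.4, 85.9 and 85.6. The calls at Notch3, Dll4, Hey1 and Nrarp were lost with fold, and that at Hey2 turned. Lfng fell to 8.12 points by fold, under the 10 of a call.

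Of the Wnt list 12 of 34 starts were higher and 4 lower by -log10 q, and 5 and 6 by fold. Lgr5, a receptor that amplifies Wnt signals, ranked at 70.4, 75.2 and 68.9 against 23.9, 29.0 and 37.3 (41.4 points, 25.1 by fold). Frzb, a secreted Wnt inhibitor, ranked at 55.7, 55.8 and 61.0 against 21.2, 14 and 18.4. Wnt2b, a ligand gene, was lower, at 18.6, 14.8 and 21.0 against 47.3, 46.5 and 42.7. Starts open in R245W alone were Wnt2, Wnt7b, Wnt16 and Dkk1.

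BMP and TGF-beta starts had 6 of 31 higher and 5 lower by -log10 q, and 2 and 7 by fold. Tgfb1 and Tgfb2, ligand genes, were lower, with differences of -21.1 ± 2.168 and -20.5 ± 2.05 points (limma adjusted p = 0.000265 and 0.000237). The antagonist gene Nog ranked at 56.2, 63.9 and 62.5 against 17.9, 17.6 and 18.6, and the ligand gene Bmp2 at 21.2, 18.7 and 26.5 against 63.9, 52.8 and 60.6. Neither shift passed with fold (4.93 and -6.66 points, limma adjusted p = 0.145 and 0.234). By regions gained and lost, 20 of 37 genes had a net count above 0 and 6 below, against 27.9% and 10.2% of 17132 genes. With lists of equal length it was 13 (35.1%) and 10 (27%), where all 16846 genes with a region had 19.1% above and 16.8% below. Counts with equal lengths in the lists that follow stand against those same shares.

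Limb and skeletal patterning genes, transcription factors that lay out the skeleton, had more regions in R245W in 25 of 43 and fewer in 5, or 20 (46.5%) and 8 (18.6%) with lists of equal length. The median was 1 net region, against 0 over all genes. At shared starts 8 of 29 were higher and 3 lower by -log10 q, and 6 and 6 by fold. En1, of dorsoventral limb pattern, ranked at 70.9, 69.5 and 67.4 against 14.2, 15.7 and 12.1 (difference 55.2 ± 1.75 points, limma adjusted p = 3.79e-06; 18.4 by fold). Alx4, an aristaless-like homeobox gene, ranked at 36.6, 33.5 and 41.3 against 0.10, 1.1 and 4.7. Tbx4, a hindlimb gene with no R172H peak, ranked at 37.6, 29.0 and 27.3 against 5.1, 6.4 and 0.81, while Meis1 was lower, at -16.1 points. Tbx3 went from 19.2 points to -10.02 with fold. Hand2, Six2, Alx1 and Sall4 had starts open in R245W alone. Pax8, listed here but better known from kidney and thyroid, had 7 gained regions and no peak at its start.

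Of the Hox genes, which set position along the body axis, 8 of 23 shared starts were higher and 1 lower by -log10 q, and 3 and 4 by fold. Hoxb9 ranked at 72.4, 76.1 and 72.8 against 22.4, 34.2 and 14.1 (17.6 points by fold), and Hoxc8 at 56.4, 53.7 and 54.7 against 25.7, 20.3 and 17.4. Hoxb2 was lower, at 27.0, 28.9 and 39.9 against 53.1, 54.6 and 60.2. Hoxa4, Hoxc6, Hoxd9 and Hoxd10 turned with fold. Neighbours in a cluster share their surroundings, so these are not separate differences. Hoxa5 and Hoxd11 were open in R245W alone. Net regions were above 0 in 14 of 38 and below in 1, or 9 (23.7%) and 2 (5.26%) with lists of equal length.

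Neural genes moved in both directions, some of them far. Sox2, a neural and stem cell factor, ranked at 72.99, 65.7 and 77.8 in R245W and at 0.45, 4.9 and 0.48 in null, a difference of 70.2 ± 3.25 points (SE, limma adjusted p = 1.06e-05; 33.9 by fold), and no R172H library had a peak there. Map2, which encodes a microtubule protein of dendrites, ranked at 84.4, 78.1 and 83.0 against 13.7, 18.97 and 15.7. Of 9 neural and neural crest starts 5 were higher and 2 lower by -log10 q, but 2 and 4 by fold. Tfap2a, Isl1 and Zfp536 were open in R245W alone, Tfap2a and Zfp536 weakly, at lowest percentiles of 25.9 and 8.9. Net regions were above 0 in 13 of 22 genes and below in 2, or 9 (40.9%) and 3 (13.6%) with lists of equal length.

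Smooth muscle and pericyte genes had 5 of 9 starts higher and 1 lower by -log10 q, and 3 and 1 by fold. Kcnj8, a pericyte potassium channel gene, ranked at 34.6, 40.2 and 37.8 against 1.5, 9.0 and 9.3, and the adhesion gene Mcam at 36.7, 36.0 and 39.7 against 12.1, 12.2 and 21.4. Pdgfrb, the receptor of mesenchymal and mural cells, went the other way, at 51.3, 54.5 and 47.6 against 80.8, 82.7 and 82.4 (-30.8 points, -11.7 by fold). Net regions were above 0 in 8 of 16 and below in 0, or 5 (31.2%) and 0 with lists of equal length. Of the 5 markers used for these cells, Acta2 and Myh11 were open in all 6 libraries and Rgs5 in none. Cspg4 was open in R245W at 36.4, 33.0 and 38.5 and closed in null, and Cnn1 was open in 1 R245W library. Whether other cells in the culture had a part in this was not tested.

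Epithelial, endothelial and adipocyte genes showed single large shifts. Of 8 epithelial starts 3 were higher and 0 lower by -log10 q, and 2 and 0 by fold. Of 7 adipocyte and myogenic starts 2 were higher and 0 lower, and 1 and 2 by fold. Of 3 endothelial starts 1 was higher and 0 lower by both. Kdr, the VEGF receptor of endothelium, ranked at 56.7, 58.2 and 61.2 against 9.2, 1.5 and 6.5 (difference 52.98 ± 2.43 points, limma adjusted p = 1.03e-05). The endothelial starts of Pecam1, Cdh5 and Tie1 were closed in all 6 libraries. Pparg, the master regulator of fat cells, ranked at 71.7, 72.5 and 76.5 against 20.5, 19.9 and 27.97. The epithelial genes Krt8 and Pkp1 were higher by 24.8 and 24.9 points, and Krt19, Grhl2, Trp63 and Dsp were open in R245W and not in null. Krt19 and Grhl2 were weak in R245W, at lowest percentiles of 4.56 and 10.6. They were also open in R172H, Krt19 in 3 libraries (39.7, 47.0 and 31.6) and Grhl2 in 2. By net regions the epithelial list stood at 6 above and 1 below, and with lists of equal length at 4 (22.2%) and 7 (38.9%) of 18, where all genes moved too, from 27.9% and 10.2% to 19.1% and 16.8%. Of 8 immune genes with a shared start, Cd68, Cd4, Spi1 and Tbx21 were higher and Cd14 lower. By fold 2 of the 8 were higher and 1 lower. The calls at Spi1 and Cd14 were lost, and Cd68 fell to 5.94 points, under the 10 of a call.

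The osteoblast list itself had 3 of 18 starts higher and 4 lower by -log10 q, and 2 and 2 by fold. Msx2, an early osteoblast regulator, ranked at 81.8, 81.5 and 83.7 against 53.3, 52.3 and 57.1 (28.1 points, 13.4 by fold), and Postn, periostin, was higher by 18.7. Dmp1, of osteocytes, ranked at 17.8, 12.8 and 10.9 against 39.5, 37.99 and 37.4, and Spp1, osteopontin, was lower, at -19.2 points. Runx2, the central bone regulator, had its start at percentiles of 85.9, 89.8 and 87.6 in R245W and 85.4, 85.6 and 85.5 in null, but 0 regions in R245W only and 5 in null only. Tnfsf11, the RANK ligand gene, had 4 and 0.

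Matrix genes moved in both directions. Dcn, decorin, ranked at 27.5, 26.8 and 37.2 in R245W and at 80.5, 81.6 and 82.4 in null, a difference of -50.98 ± 2.97 points (SE, limma adjusted p = 2.43e-05), and it had 0 regions in R245W only against 4 in null only. Col6a3, a collagen VI chain, ranked at 0.83, 3.3 and 5.2 against 40.7, 48.5 and 47.8 (-42.5 points, -15.7 by fold), with no R172H peak. Slit3 of the guidance list was also lower, at 23.9, 31.2 and 37.4 against 78.3, 76.6 and 73.2 (-45.2 points, -20.5 by fold). In that list 6 of 22 starts were higher and 2 lower by -log10 q, and 2 and 1 by fold. Of 30 matrix starts 7 were higher and 4 lower by -log10 q, and 4 and 5 by fold. Net regions were above 0 in 17 of 36 genes and below in 11, and in 11 (30.6%) and 16 (44.4%) with lists of equal length. Col4a1 and Fbn2 were open in R245W alone and Col12a1 in null alone. Of the matrix proteases and inhibitors, 6 of 22 starts were higher and 4 lower, and 4 and 2 by fold. Mmp11, a stromal protease gene, was lower, at -27.0 points.

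Receptor tyrosine kinase genes had 9 of 31 starts higher and 8 lower by -log10 q, and 4 and 7 by fold. Beside Kdr, Alk and Ret were higher by 37.5 and 34.9 points (29.6 and 18 by fold). Igf1r, the receptor of insulin-like growth factors, ranked at 74.2, 75.2 and 78.7 against 98.3, 99.1 and 98.1 (-22.5 points, -7.59 by fold). Epha4, an ephrin receptor gene, ranked at 5.7, 6.2 and 11.8 against 37.6, 40.4 and 27.97. Erbb4, Csf1r and Fgfr4 were open in R245W alone. Of 15 cytokine and chemokine starts 0 were higher and 3 lower by -log10 q, and 0 and 0 by fold. Lif was open in R245W alone.

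Of 33 p53 family and target genes 30 (90.9%) were open in all 6 libraries, against 57.1% of all genes. The share was 92% in the AP-1 and TEAD list and 95% in the housekeeping list. Of 30 shared starts 2 were higher and 2 lower by -log10 q (6.67% each, against 13.5% and 6.37% of all genes). By fold it was again 2 and 2, but not the same genes: Tigar, higher by 13.5 points, stood at -0.02 with fold. Eda2r, a death receptor gene, ranked at 56, 55.96 and 51.2 against 24.96, 19.9 and 24.2, a difference of 31.4 ± 2.19 points (limma adjusted p = 4.99e-05; 10.6 by fold). Fas, another death receptor gene, was lower, at -13.5 points. Pml, at -20.1, did not pass with fold (-4.11 points, limma adjusted p = 0.128). Perp, a p53 effector in cell death and adhesion, had 3 regions in R245W only. At its span end it stood at 62.2, 70.2 and 67.7 in R245W, against 6.4 and 2.4 in the 2 null libraries with a peak. Of the osteosarcoma genes, Cdkn2a, Cdkn2b and Dlg2 were open in R245W alone and Nf1 in null alone, while Mycn was lower at its shared start, at -28.4 points (-10.2 by fold). Of 19 housekeeping starts 1 was higher and 0 lower by -log10 q, and 0 and 5 by fold. Of the AP-1 and TEAD list 3 of 23 were higher and 1 lower, and 2 and 3 by fold.

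**Figure D4:**
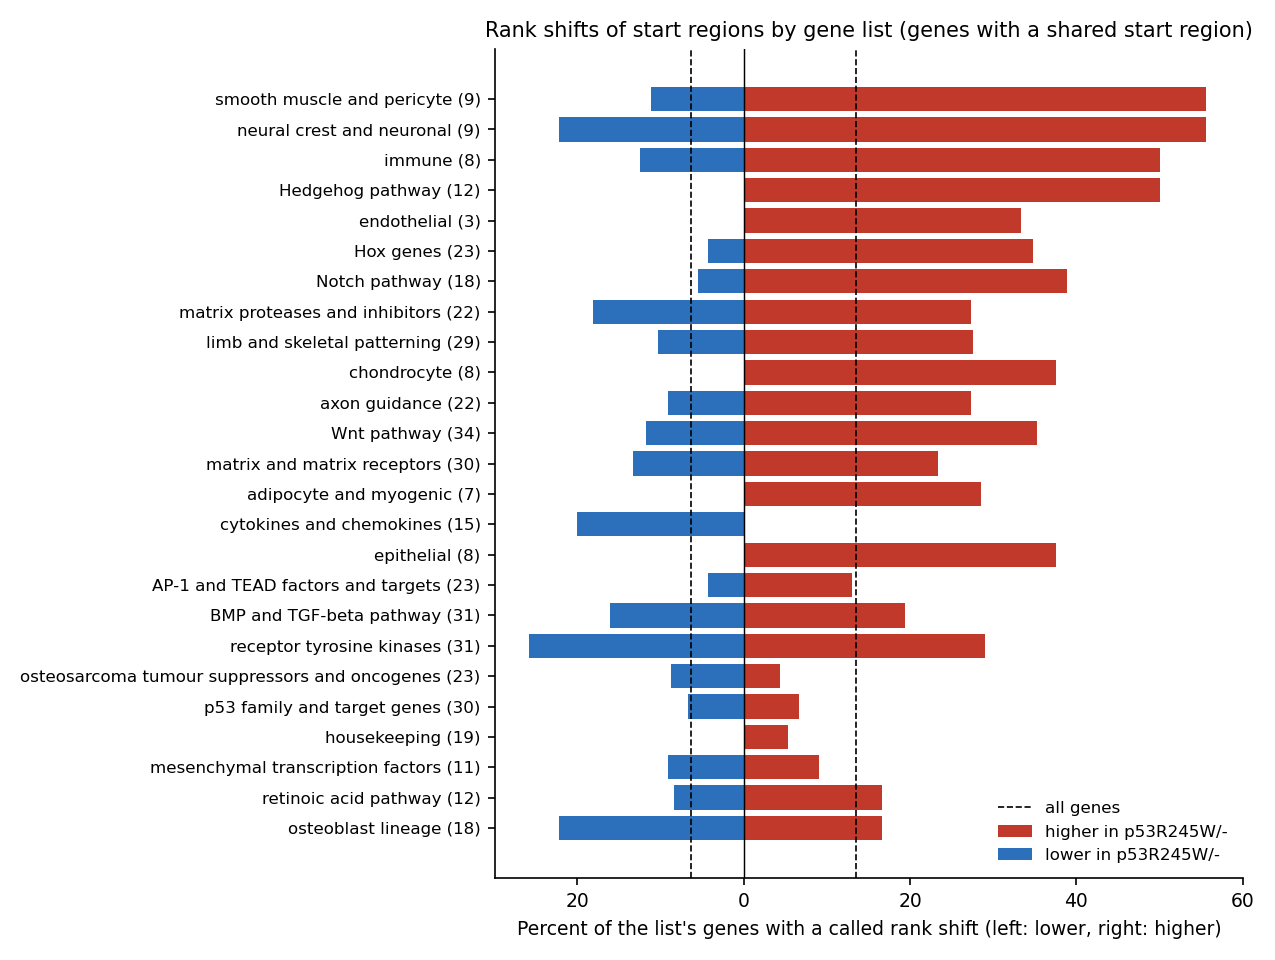
Percent of each list's genes whose shared start region ranked higher (right, red) or lower (left, blue) in R245W, with the number of genes with a shared start region in brackets and dashed lines for all genes (13.5% higher, 6.37% lower). The bars use -log10 q; smooth muscle, neural, immune and Hedgehog lists reach furthest to the right on 8 to 12 genes, and with fold their higher calls fall to 3, 2, 2 and 2.

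The chromosomes took part unequally. R245W-only regions made up 25.6% of the called regions of chromosome X, 17.5% of chromosome 6 and 16.2% of chromosome 13, but 7.37% of chromosome 7. Null-only regions made up 12.2% of chromosome 18, 9.18% of chromosome 7 and 9.10% of chromosome 12, and 2.36% of X. Ranks of shared regions moved alike. Their median shift was -10.04 points on chromosome 18, where 49.3% ranked lower and 8.998% higher, -5.49 on chromosome 12 and -4.76 on chromosome 7, and 6.06 on chromosome 6. The recovered pile-up, scaled by the library median, differed by a median of -0.66 on the log2 scale on chromosome 18. With fold over local background in place of -log10 q the chromosome 18 median was -1.12, and with whole-list percentiles -5.13. Neighbouring regions share copy number and are not replicates, and copy number and accessibility cannot be told apart in these values. With each chromosome's median subtracted, a setting added after the data were seen, 8908 regions were higher and 9153 lower. Pdgfrb and Dpysl3 lie on chromosome 18, and Irx2 and Foxd1 on chromosome 13.

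**Figure D5:**
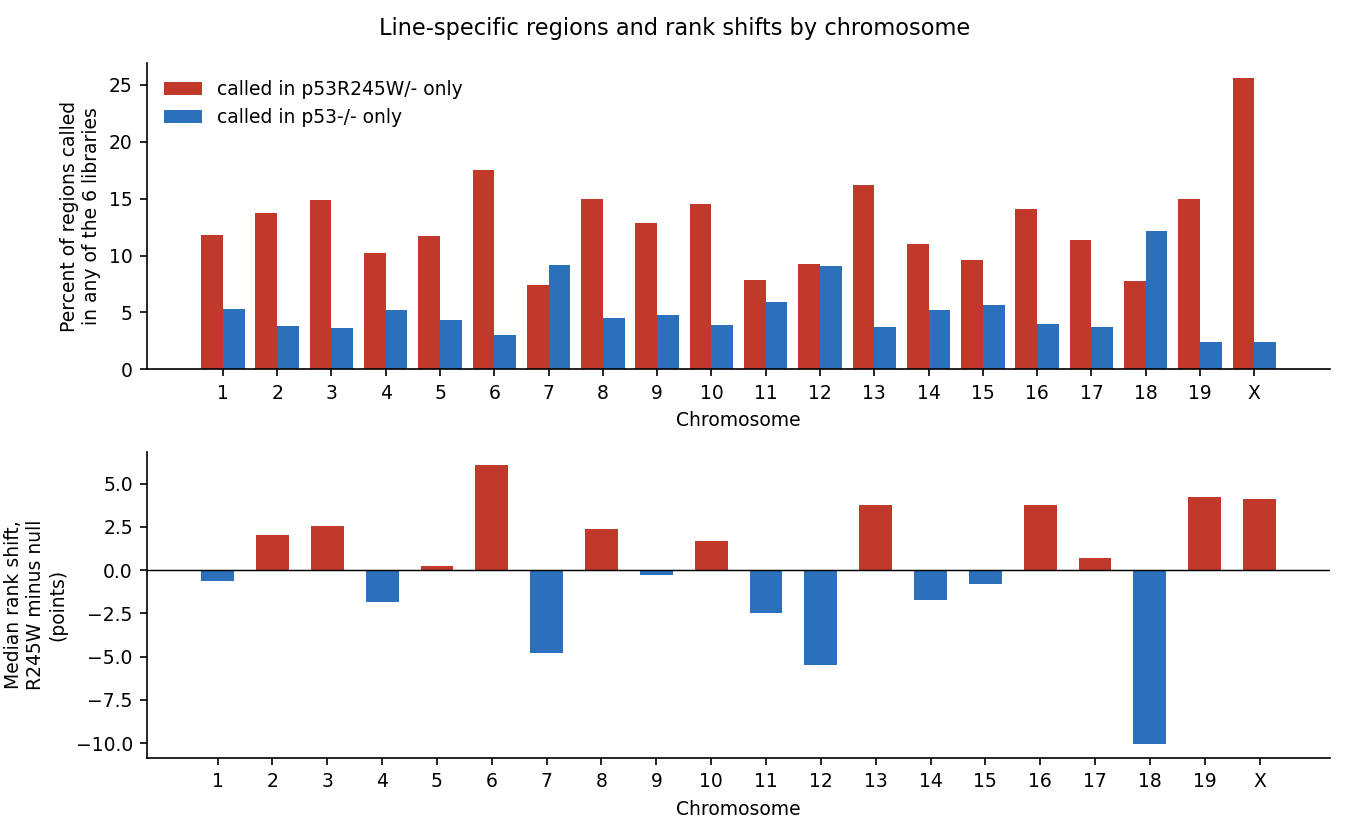
Top, percent of the regions called in any of the 6 libraries that were called in R245W only (red) or null only (blue), by chromosome. Bottom, median difference in percentile rank, R245W minus null, over regions called in all 6; chromosome 18 is lowest at -10.04 points and chromosome 6 highest at 6.06, and X has the largest share called in R245W only.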

How the data were processed

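ATAC-seq peak lists of 9 libraries were used, 6 of them in the comparison. Per the submitters' processing notes reads were handled with bcl2fastq (2.17), Trimmomatic (0.33) and Bowtie (1.1.2), on GRCm38, and peaks and signal with MACS2 (2.1.0) and deepTools. The sources used here give neither settings nor a Tn5 shift, whose absence would displace edges by a few bases. The authors deposited 1 list per library, with a summit offset in bases, a -log10 p-value and -log10 q-value, a score and a fold ratio against local background per peak. Each deposited value is the peak's own and served to order that list's own peaks. No -log10 q was below 1.30 (a q of 0.05). The files give no read depth; pile-up and Poisson background at the summit were solved from fold and -log10 p, and came out whole within 0.05 for 648618 of 648618 peaks.

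Peaks were merged at 1 bp overlap. A gene start was open with a peak within 1000 bp. A region belonged to the protein-coding gene whose span end was nearest, up to 50000 bp away. The gene table (RefSeq, GRCm38.p6) gives spans without exons, so exonic and intronic positions are not stated. Rank shifts were fitted with limma 3.58.1 in R 4.3.3 over the 47700 shared regions without covariates, and the fit was tested on simulated data. Other steps ran in Python 3.11.15 (matplotlib 3.10.9, scipy 1.17.1, pandas 2.3.3, numpy 2.4.6).

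The members, the 25 gene lists and the rules were chosen with earlier results of these data known, so lists are described by counts beside all genes and not tested. Named by rule were Trp53, per direction the 12 strongest specific regions, the 12 genes with the most net regions, the 12 largest rank shifts without overlap and the 10 strongest starts, and up to 4 members per list with a line-specific start or at least 2 net regions; genes with only a systematic name were passed over, and a few of the named items are not reported here. List members at shared starts and stretches were named after their values were seen. The alternatives comprised lists of equal length, a stricter -log10 q of 5, calls in 2 of 3 libraries, autosomes only, summit windows of 250 bp either side, 50% overlap, merging over 6 lists, other windows and assignment distances, fold, whole-list percentiles, the log2 recovered pile-up, other thresholds, leaving out each library, and the replicate block.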

Additional observations from a re-analysis of the deposited data

How the results depend on the processing

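The 24 strongest regions kept their call in all 192 comparisons, with each library left out, a stricter -log10 q of 5 or lists of equal length. Such settings cannot remove strong peaks called 3 of 3 against 0 of 3, so this outcome was set by the choice of regions. The 24 largest rank shifts kept their sign and a limma adjusted p under 0.05 in all 281 comparisons. They too were picked as the most extreme. The named starts held in 243 of 252 and were lost in 9. Of the 157 list genes with a shifted start, 70 kept their sign and a limma adjusted p under 0.05 throughout, whatever the size. With fold 57 kept the sign without such a p and 27 turned: Sparc (2.17), Twist1 (0.78), Tbx3 (-10.02), Hoxa4 (-6.92), Hoxc6 (-4.86), Hoxd9 (-6.85), Hoxd10 (-4.62), Wif1 (-0.41), Smad9 (-7.51), Chrd (-0.26), Id4 (-14.53), Hey2 (-4.4), Boc (-3.78), Insr (-1.7), Ror1 (-3.96), Epha3 (15.65), Ephb2 (5.48), Tigar (-0.02), Tead3 (-5.18), Ccn2 (-7.55), Mmp2 (9.65), Cxcl5 (6.82), Plxna1 (-1.21), Efna5 (-0.38), Efnb1 (-1.76), Neurog2 (-11.09) and Lpl (-16.77 points). Counts moved by over 1.5 times as follows. Starts open in null alone went from 0.452% of genes to 0.786% with lists of equal length and to 0.681% with calls in 2 of 3 libraries, and genes with net regions below 0 from 1744 to 2828 with equal lengths, while those above 0 went from 4772 to 3220. Rank shifts lower in R245W fell to 5896 with whole-list percentiles, and a threshold of 20 points left 4781 higher and 4810 lower. At gene starts fold gave 1111 higher and 1315 lower, whole-list percentiles 290 lower and the pile-up 1370 lower. The causes were not tested. The chromosome 18 median, -10.04, was -1.12 with fold and -5.13 with whole-list percentiles, and it moved less, to -10.64, at a -log10 q of 5 or more. Leaving out each library gave 13353 to 14520 R245W-only and 5391 to 5912 null-only regions, 3.5% to 3.62% and 0.494% to 0.548% of starts, 4989 to 5330 and 1776 to 1979 genes above and below 0, 9389 to 9500 and 9423 to 9522 rank shifts, 1612 to 1719 and 790 to 833 at starts, and -10.32 to -10.06 on chromosome 18. Replicate numbers are shared between the lines, but same-numbered libraries did not deviate together (correlations of -0.00419, -0.00176 and -0.0053), so the numbers do not pair them; with the replicate block 9646 regions were higher and 9658 lower. At low percentiles a missing call and a call under the threshold cannot be told apart, and read depth is unknown.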
